A study of Mus musculus with 19 samples.

Results

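The genes described here are 41 genes of the primary cilium and its transport machinery, chosen by symbol from the deposited expression table of 47643 gene symbols. They comprise 11 genes of the intraflagellar transport B complex (IFT-B), 6 of the IFT-A complex, 2 subunits of the dynein-2 motor, 6 subunits of the BBSome, 2 chaperonin-like Bardet-Biedl syndrome (BBS) genes, 3 Arf-like GTPases, Inpp5e and Tulp3, which act on ciliary membrane lipids and cargo, 3 regulators of Hedgehog signalling at the cilium, and 6 genes of the transition zone and basal body. All 41 symbols were found, and all 41 passed the expression filter of 1 TPM or more in 4 or more libraries (TPM is a read share corrected for gene length), as did 13520 genes of the table. RNA was sequenced from dissected cortex of E14.5 mouse embryos. The groups were 4 dorsal and 4 medial libraries of GFAP::Cre; SmoM2 mutants, and 6 dorsal and 5 medial libraries of controls, which the study calls wildtype. SmoM2 is a form of Smoothened (Smo) that is active without ligand, and it is switched on here by Cre recombinase under a GFAP promoter, so only cells in which Cre acted, and their descendants, carry the active protein. The cortex was not sorted by cell type. The labels give the tissue as dorsal or medial cortex, while the protocol speaks of medial or lateral pieces, and the names dorsal and medial are kept here.

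The primary cilium is a microtubule-based antenna that grows from the older centriole of the cell. Cargo travels outward along it on IFT-B trains driven by kinesin-2 and returns with IFT-A and dynein-2, while the BBSome carries membrane receptors out of the cilium and the transition zone gates its base. In vertebrates Hedgehog signalling runs through this organelle: without ligand, Patched keeps Smo out and Gpr161 raises cyclic AMP inside the cilium, and on activation Smo enters, acts with Evc and Evc2 near the base, and Gpr161 leaves. In the developing cortex the radial glia carry their cilium on the surface that faces the ventricle.

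Each column of the table sums to 1000000 TPM, so the sequencing depth is unknown and no counting error can be given. Libraries of the same group correlated at r from 0.975 to 0.993 over the tested genes, and between 17357 and 18670 genes were above 0 in a library. The Hedgehog target Gli1 separated the genotypes in all libraries. It lay between 30.7 and 42.8 TPM in mutant dorsal cortex, against 0.327 to 1.08 TPM in control dorsal cortex, and between 24.3 and 48.1 TPM in mutant medial cortex, against 0.2 to 0.558 TPM in control medial cortex. Ptch1, the Hedgehog receptor and a target of the pathway, was higher by 3.18 ± 0.11 (log2, SE) in dorsal and by 3.45 ± 0.11 in medial mutant cortex. Smo transcripts were higher by 0.61 ± 0.09 and 0.47 ± 0.09 (limma, adjusted p = 4.12e-05 dorsal and 0.000617 medial). Whether reads from SmoM2 were counted as Smo is not given in the sources used here. The rise is therefore not shown to be that of the normal Smo gene. By Xist and Ddx3y all 4 mutant embryos were male, as were 3 of the 6 control embryos. No label states that each library of a group is a different embryo, and the p-values therefore reflect variation between libraries that could be technical.

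The genes spanned the expression range from the 17.8 to the 92.1 percentile of tested genes. Per length, the highest mean over the 19 libraries was 154 TPM for Arl3, the GTPase that releases lipid-modified cargo inside the cilium. Ift43, an IFT-A subunit, averaged 93.3 TPM, and the IFT-B genes Ift74, Ift27 and Ift20 averaged 70.1, 68.6 and 61.3 TPM. At the low end, the transition zone genes Tctn2, Rpgrip1l and Mks1 averaged 3.73, 6.5 and 6.51 TPM, and Tulp3 averaged 6.05 TPM. Subunits of the same complex were therefore not at equal transcript levels: within IFT-A the means ran from 7.08 TPM for Wdr19 to 93.3 TPM for Ift43, and within the BBSome from 9.37 TPM for Bbs5 to 41.2 TPM for Bbs4. Evc and Evc2, neighbours on the chromosome, both averaged 11.7 TPM.

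**Figure D1:**
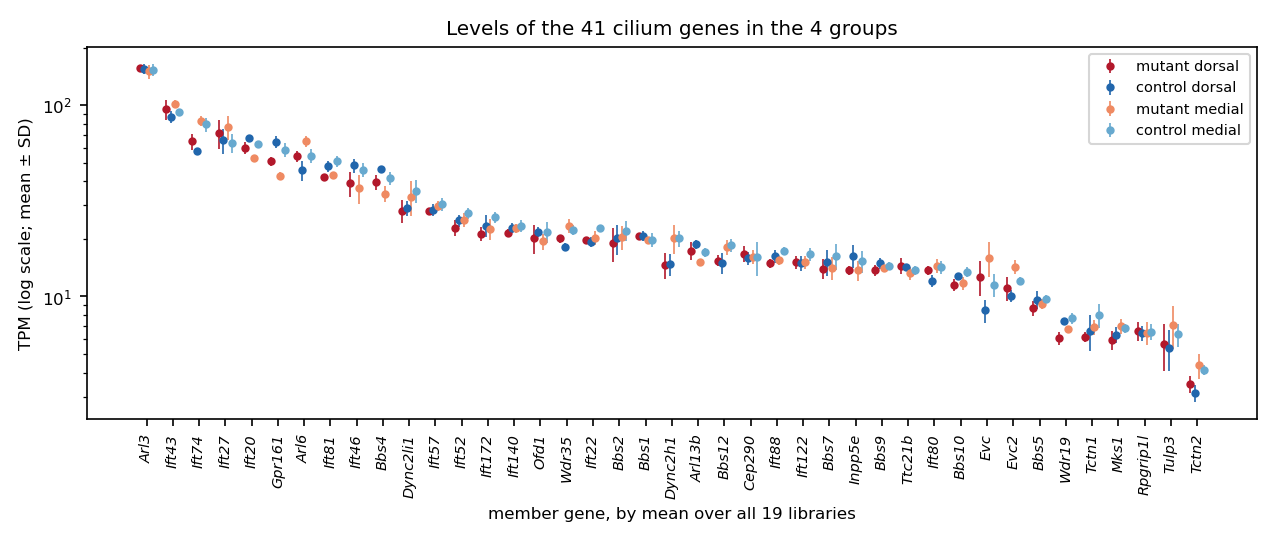
Mean TPM of each of the 41 genes in the 4 groups, on a log axis, ordered by the mean over all 19 libraries; bars are the SD over the libraries of a group (4 mutant dorsal, 6 control dorsal, 4 mutant medial, 5 control medial). The order is led by Arl3 at 154 TPM and closed by Tctn2 at 3.73 TPM, and the 4 groups of a gene lie close together compared with the distances between genes.

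Spread within groups is given here for the 41 genes only, with no value for all tested genes beside it. The coefficient of variation (SD as a percent of the mean) of the 41 genes had a median of 8.86% in mutant dorsal, 7.67% in control dorsal, 8.66% in mutant medial and 7.62% in control medial cortex. Tulp3, whose product brings membrane receptors including Gpr161 into the cilium together with IFT-A, varied most in 3 of the 4 groups, with 27.9% in mutant dorsal, 23.8% in control dorsal and 25.1% in mutant medial cortex. In control medial cortex the most variable gene was the transition zone gene Cep290, with 20.1%. The summed TPM of the 41 genes lay between 1114 and 1159 in mutant dorsal libraries, against 1132 to 1182 in control dorsal libraries, and between 1155 and 1225 in mutant medial libraries, against 1179 to 1264 in control medial libraries. These ranges overlap between the genotypes in both regions.

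A sequence feature shared by some of the genes is the X-box, the binding motif of RFX factors, which control ciliary genes from worms to mammals. It was searched on both strands as the arms GTTNCC and GGNAAC with 2 free bases between them, in promoters running from 250 bases before to 50 bases after the start site (RefSeq, GRCm38.p6), and 37 of the 41 genes have such an entry. The motif was present in 3 of the 37 (8.11%), Bbs7, Mks1 and Tctn1, against 0.529% of 27025 genes. The letters GTTGCC, which make up the left arm of many X-boxes and so overlap with them, were present in 15 of the 37 (40.5%), against 14.1% of all genes, and the GLI motif GACCACCCA, the site bound by the transcription factors of the Hedgehog pathway, was in none of the 37 windows, against 0.289% of all genes. At 0.289%, finding no GLI motif in 37 windows is likely for any genes, so it does not show that these genes lack GLI sites. A motif match is a description of the letters and not evidence of binding. The stretches below are shown because they are the complete X-boxes of the set, in capitals, on the strand of the gene: chr3:36613474-36613533 for Bbs7 (minus strand), chr11:87853168-87853227 for Mks1 (plus strand) and chr5:122264411-122264440 for Tctn1 (minus strand).
Bbs7: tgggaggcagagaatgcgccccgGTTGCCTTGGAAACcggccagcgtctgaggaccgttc
Mks1: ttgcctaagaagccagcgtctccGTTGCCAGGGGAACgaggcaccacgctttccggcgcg
Tctn1: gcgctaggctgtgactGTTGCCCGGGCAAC

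The X-box began 121 bases before the start site in Bbs7, 24 bases before it in Mks1 and 36 bases after it in Tctn1. Bbs7 is a BBSome subunit, and Mks1 and Tctn1 belong to the transition zone. None of these 3 genes passed the test between genotypes or between regions in the TPM as deposited without a block for the embryo.

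The first question of the design was what the active Smo changed in each region. In dorsal cortex, 3 of the 41 genes passed the test as higher in mutants (Ift74, Arl6 and Evc), where 9.93% of all tested genes did, and 6 passed as lower (Ift20, Ift46, Ift81, Wdr19, Bbs4 and Gpr161), where 27.6% of all tested genes did. In medial cortex 3 genes were higher (Arl6, Evc and Evc2; 9.44% of all genes) and 9 were lower (Ift20, Ift22, Ift46, Ift81, Wdr19, Bbs4, Bbs10, Arl13b and Gpr161; 30.2% of all genes). In the TPM as deposited the shares among the 41 genes were 7.32% (higher) and 14.6% (lower) in dorsal cortex, and 7.32% and 22% in medial cortex. These shares were below the backgrounds, but for the higher share this depended on the scale, as given below. No member reached a 2-fold change, which 1.01% of all genes did with a call in dorsal and 1.66% in medial cortex. Libraries of the genotypes did not overlap for 1 gene higher and 4 lower in dorsal mutant cortex (7.25% and 17.6% of all genes) and for 3 higher and 6 lower in medial mutant cortex (7.63% and 22.7%). The median log2 change of the 41 genes was -0.05 in both regions, beside -0.10 in dorsal and -0.11 in medial cortex over all tested genes. In bulk tissue, fewer cells of a type and less RNA per cell cannot be told apart.

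The median of all genes lay below 0, and the calls depended on how libraries were put on a common scale. With libraries rescaled by median ratios, 7 genes were higher and 2 lower in dorsal cortex (all genes 15.6% and 14.2%), and 6 were higher and 2 lower in medial cortex (all genes 16.1% and 16.7%). With quantile normalization the counts were 7 and 1 in dorsal cortex (1959 and 2173 of all tested genes) and 8 and 3 in medial cortex (2164 and 2275 of all tested genes). Relative to the TPM as deposited, quantile normalization moved the median change of all genes by 0.11 in medial cortex. The calls made on all 3 scales were higher Ift74, Arl6 and Evc and lower Gpr161 in dorsal cortex, and higher Arl6, Evc and Evc2 and lower Ift20 and Gpr161 in medial cortex.

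**Figure D2:**
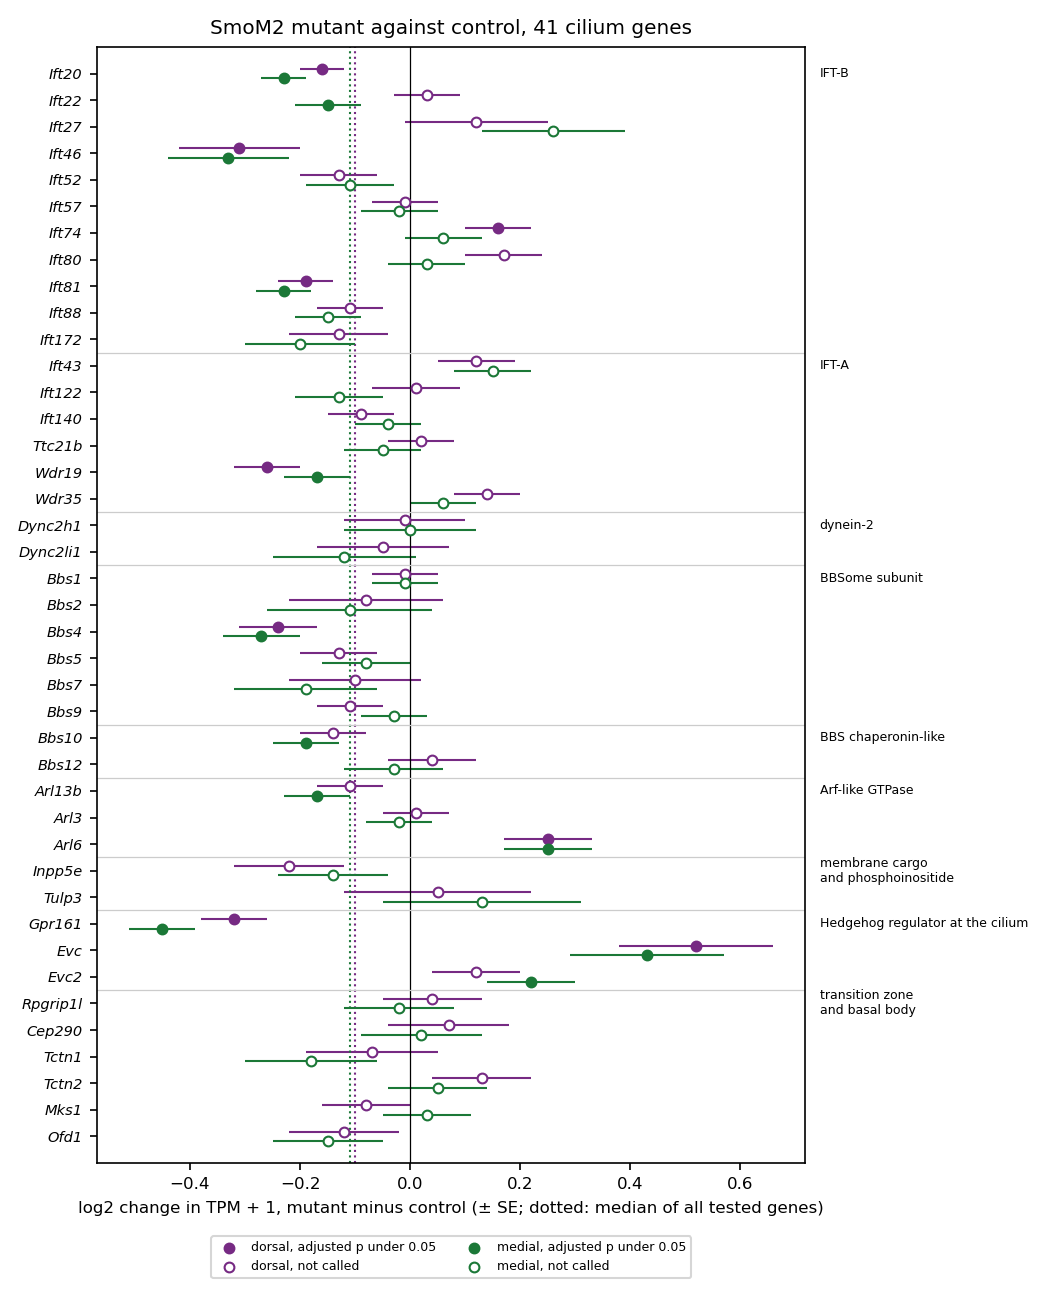
Log2 change of TPM + 1, mutant minus control, for each of the 41 genes in dorsal (purple) and medial (green) cortex, with the SE; filled points passed the test (adjusted p under 0.05), open points did not, and dotted lines mark the median of all tested genes. Evc lies farthest to the right (0.52 dorsal, 0.43 medial) and Gpr161 farthest to the left (-0.32 dorsal, -0.45 medial), while most genes lie near the dotted lines.

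Among the Hedgehog regulators, Gpr161 was lower and Evc higher in mutants in both regions. Gpr161, an orphan receptor that represses Hedgehog signalling from within the cilium (chr1:165295789-165326745, plus strand), was at 53, 51.7, 47 and 52.7 TPM in the 4 mutant dorsal libraries, against a range of 56.6 to 69.8 TPM with a median of 65.2 TPM in the 6 control dorsal libraries. In medial cortex it was at 41.4, 41.5, 42.1 and 45.6 TPM in mutants, against 54.8, 54.7, 57.3, 58.5 and 67.4 TPM in controls. All mutant libraries thus lay below all control libraries of the same region. The log2 change was -0.32 ± 0.06 in dorsal cortex (adjusted p = 0.0005) and -0.45 ± 0.06 in medial cortex (adjusted p = 3.81e-05), with mean TPM at 0.795 and 0.728 times the control mean. It passed the test under all 28 alternative settings in both regions, with adjusted p of at most 0.00337 and 0.000943.

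Evc, which with Evc2 forms a membrane complex at the base of the cilium that passes the signal of Smo on, was at 11.1, 10.2, 16.2 and 13.2 TPM in mutant dorsal libraries, against 6.87 to 9.83 TPM with a median of 8.37 TPM in control dorsal libraries. In medial cortex the mutant libraries held 12.9, 14, 20.3 and 16.3 TPM, against 12.1, 11.9, 9.59, 13.5 and 10.3 TPM in controls. The dorsal groups did not overlap, whereas in medial cortex mutant library 1 lay below control library 5. In both regions mutant number 3 was highest and number 4 next. Those libraries were also high in the erythroid gene Hba-a2, at 461 to 638 TPM, against 57.8 to 71.1 TPM in mutants 1 and 2. So were control dorsal libraries 1 and 5 (766 and 664 TPM) and control medial library 5 (572 TPM). All other control libraries held at most 108 TPM. Another erythroid marker, Hba-a1, went the other way, and the libraries high in Hba-a2 had the lowest Hba-a1 of their groups. It was at 1124 and 1137 TPM in mutant dorsal libraries 3 and 4, against 1932 and 1874 TPM in libraries 1 and 2. Hba-a2 therefore does not stand for the erythroid markers as a set. The control libraries high in Hba-a2 had the highest Evc of their groups. The part of this split in the results was not tested. Evc rose by 0.52 ± 0.14 in dorsal cortex (adjusted p = 0.00587, and at most 0.0342 under all 28 alternatives) and by 0.43 ± 0.14 in medial cortex (adjusted p = 0.0222), or to 1.5 and 1.38 times the control mean. The medial call ended when control medial library 4 or 6 or mutant medial library 3 or 4 was left out (adjusted p up to 0.0981), when sex was a covariate (0.102), and without the 3 medial libraries with at least 40 TPM of the choroid plexus gene Ttr, called Ttr-rich here (0.237). That setting has fewer medial libraries, and all tested genes lost calls in it. In medial mutant cortex their share fell from 9.44% to 6.09% higher and from 30.2% to 20.9% lower. The cause of calls lost in this setting was not tested.

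Evc2 was at 11.3, 9.41, 13.2 and 10.3 TPM in mutant dorsal libraries, against 8.97 to 10.7 TPM with a median of 10.3 TPM in control dorsal libraries. In mutant medial libraries it was at 13.5, 13.5, 16.1 and 14 TPM, against 11.4, 12.9, 11.8, 12 and 12.3 TPM in control medial libraries. The dorsal groups overlapped and the medial groups did not. The change of 0.12 ± 0.08 in dorsal cortex did not pass as deposited (adjusted p = 0.249; 0.0418 by median ratios and 0.0173 by quantiles), and the rise of 0.22 ± 0.08 in medial cortex passed narrowly (0.0366). That call did not hold without control medial library 2, 4, 5 or 6 or mutant medial library 3 or 4 (adjusted p up to 0.137), with no filter on low values, with sex as a covariate (0.127) and without the Ttr-rich libraries (0.333).

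Evc (chr5:37289098-37336894, minus strand) and Evc2 (chr5:37338499-37425055, plus strand) lie head to head, with annotated gene starts 1605 bases apart. The 250 bases before each start site (RefSeq, GRCm38.p6) are printed because the genes are neighbours and both were higher in medial mutant cortex. The windows are chr5:37336882-37337131 for Evc and chr5:37338228-37338477 for Evc2, each on the strand of its gene, and they do not overlap. Capitals mark the letters of GTTGCC on the opposite strand, which the Evc window holds 183 bases before the start site. The Evc2 window holds none, and neither window holds the full X-box or the GLI motif.
Evc: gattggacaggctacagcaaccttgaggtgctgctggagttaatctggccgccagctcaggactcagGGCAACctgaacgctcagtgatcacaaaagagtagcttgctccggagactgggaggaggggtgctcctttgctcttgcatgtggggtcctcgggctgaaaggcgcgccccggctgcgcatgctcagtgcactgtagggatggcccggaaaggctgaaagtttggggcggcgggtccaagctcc
Evc2: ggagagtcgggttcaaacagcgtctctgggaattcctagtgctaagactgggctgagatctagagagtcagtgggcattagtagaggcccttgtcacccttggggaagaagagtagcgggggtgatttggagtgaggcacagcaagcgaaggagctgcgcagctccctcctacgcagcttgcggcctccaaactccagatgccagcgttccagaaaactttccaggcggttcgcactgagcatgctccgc

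**Figure D3:**
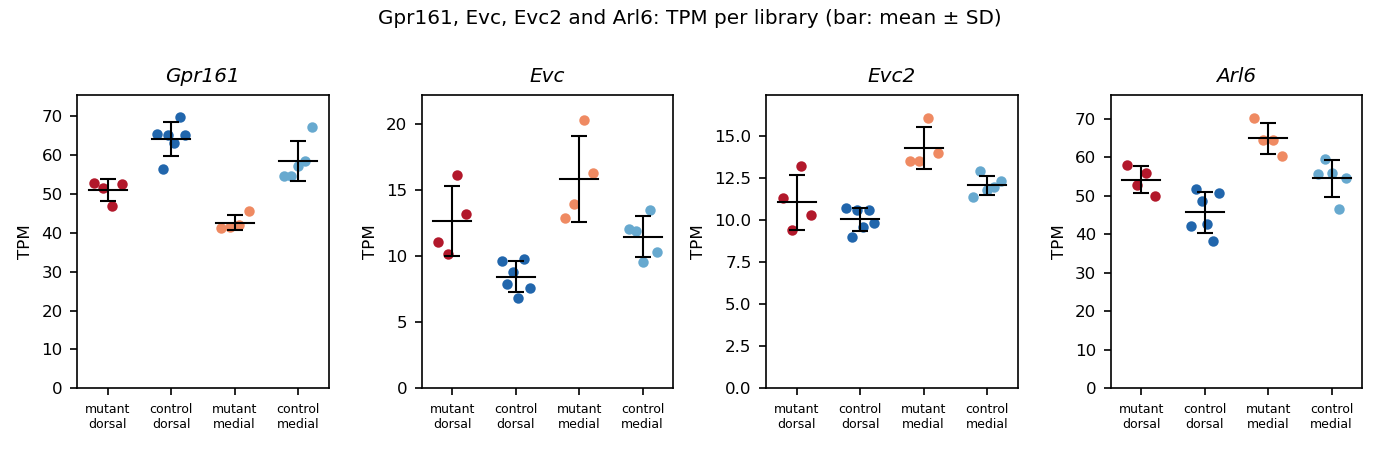
TPM of Gpr161, Evc, Evc2 and Arl6 in every library, by group, with the mean and SD; the axes start at 0. Gpr161 is lower in all mutant libraries (41.4 to 53 TPM over both regions) than in the control libraries of the same region, and the mutant means of Evc and Arl6 lie above the control means in both regions.

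Among the Arf-like GTPases, Arl6 rose in both regions and Arl13b fell in medial mutant cortex. Arl6, the GTPase that recruits the BBSome to membranes, is shown in full, a choice made after its values were seen. It was at 58.1, 52.9, 55.9 and 49.9 TPM in mutant dorsal libraries, against 38.4 to 51.7 TPM with a median of 45.6 TPM in control dorsal libraries. Medial mutant libraries held 70.3, 64.5, 64.6 and 60.3 TPM, against 55.6, 59.7, 56, 46.7 and 54.6 TPM in control medial libraries. The dorsal groups overlapped, since mutant library 4 lay below control libraries 2 and 6, and the medial groups did not overlap. Arl6 rose by 0.25 ± 0.08 in each region (adjusted p = 0.0217 dorsal and 0.0228 medial). The dorsal call was lost without mutant dorsal library 1 or 3 (adjusted p up to 0.0764), and the medial one without control medial library 5 or mutant medial library 1 (up to 0.0732) or without the Ttr-rich libraries (0.0734).

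Arl13b, a GTPase of the ciliary membrane that activates Arl3, was at 15.9, 18.8, 15.5 and 19.1 TPM in mutant dorsal libraries, against 17.6 to 20 TPM with a median of 18.7 TPM in control dorsal libraries. It was at 14.503, 15.4, 15.2 and 15.2 TPM in mutant medial libraries, against 17.4, 15.9, 16.3, 18.1 and 17.6 TPM in control medial libraries. The medial groups did not overlap. The dorsal change of -0.11 ± 0.06 did not pass (adjusted p = 0.178), and the medial fall of -0.17 ± 0.06 passed at 0.0444 but on neither other scale (0.41 by median ratios and 0.726 by quantiles) and not without any 1 of 10 libraries (up to 0.104), namely the 4 mutant medial libraries, control medial libraries 2, 5 and 6 and control dorsal libraries 1, 3 and 4. The medial call was also lost with the embryo as a block (0.0623), with no filter on low values (0.0742) and without the Ttr-rich libraries (0.121). Arl3 itself was at 156 ± 6.49 TPM in mutant dorsal and 155 ± 9.29 TPM in control dorsal cortex (SD, n = 4 and 6), a log2 change of 0.01 with a 95% interval from -0.11 to 0.14. In medial cortex it was at 150 ± 12.4 TPM in mutants and 153 ± 10.6 TPM in controls (SD, n = 4 and 5), with an interval from -0.15 to 0.10. No bound of either interval lies more than 0.15 from no change.

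Inpp5e, the lipid phosphatase that sets the phosphoinositide content of the ciliary membrane, was at 13.7 ± 0.732 TPM in mutant dorsal and 16.3 ± 2.2 TPM in control dorsal cortex (SD, n = 4 and 6), and at 13.7 ± 1.58 TPM in mutant medial and 15.3 ± 2.09 TPM in control medial cortex (n = 4 and 5). Neither change passed (-0.22 ± 0.10, adjusted p = 0.0833, and -0.14 ± 0.10, 0.285). Of its exonic length, 20.3% also lies in exons of Pmpca on the other strand, and whether the authors counted by strand is not given in the sources used here, so its level is uncertain. Tulp3 was at 5.64 ± 1.57 TPM in mutant dorsal and 5.37 ± 1.28 TPM in control dorsal cortex, and at 7.11 ± 1.78 TPM in mutant medial and 6.33 ± 0.871 TPM in control medial cortex. Its intervals, -0.31 to 0.42 and -0.25 to 0.51, are the widest of the 41 genes between genotypes and leave changes of either sign possible. In every group Tulp3 was highest in the libraries high in Hba-a2.

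Of the 11 IFT-B genes, 1 rose and 3 (27.3%) fell in dorsal mutant cortex, where 27.6% of all tested genes were lower, and 0 rose and 4 (36.4%) fell in medial mutant cortex, where 30.2% of all tested genes were lower. These shares lay near those of all genes. Ift20, the subunit that also works at the Golgi in sorting ciliary membrane cargo, was at 60.5, 64.4, 54.1 and 61 TPM in mutant dorsal libraries, against 62.5 to 68.3 TPM with a median of 67.9 TPM in control dorsal libraries. Its medial mutant values were 55.2, 52.5, 51.8 and 52 TPM, against 61.2, 62.8, 61.2, 61 and 65.7 TPM in control medial libraries. Mutant and control libraries were apart in medial cortex, and in dorsal cortex mutant library 2 lay above control library 1. Ift20 fell by 0.16 ± 0.04 on the log2 scale in dorsal cortex (adjusted p = 0.00752) and by 0.23 ± 0.04 in medial cortex (0.000507). The medial fall was called under all 28 alternatives (up to 0.0432), and the dorsal fall was not called after rescaling by median ratios (0.296) or quantiles (0.112).

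Ift81, which with Ift74 forms the tubulin-binding pair of the IFT-B core, was at 42.2, 40.6, 41.7 and 43.4 TPM in mutant dorsal libraries, against 44 to 52.5 TPM with a median of 47.6 TPM in control dorsal libraries. In mutant medial libraries it was at 43.3, 41.7, 43.3 and 43.7 TPM, against 48.8, 55.2, 51.6, 46.1 and 52.5 TPM in control medial libraries. The groups did not overlap in either region, and the 4 mutant libraries lay close together in each region. Ift81 fell by 0.19 ± 0.05 (adjusted p = 0.00915) and by 0.23 ± 0.05 (0.00234). After median-ratio rescaling neither fall was called (0.169 and 0.0651), and after quantile normalization the medial fall was (0.0317) and the dorsal one was not (0.11).

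Its partner Ift74 did not fall with it. Ift74 was at 71.7, 63.4, 66.7 and 56.7 TPM in mutant dorsal libraries, against 53.5 to 59.7 TPM with a median of 57.6 TPM in control dorsal libraries. Medial mutant libraries held 88, 78.4, 86 and 79.1 TPM, against 84.2, 88.1, 71.9, 77.1 and 75.8 TPM in control medial libraries. Mutant dorsal library 4 lay inside the control range, and the medial groups overlapped. The dorsal rise of 0.16 ± 0.06 passed at an adjusted p of 0.0494, but not when any of 15 of the 19 libraries was left out (up to 0.199). These were mutant dorsal libraries 1, 2 and 3, all 6 control dorsal libraries, mutant medial libraries 2, 3 and 4 and control medial libraries 2, 5 and 6. The call was also lost with sex as a covariate (0.0665), with no filter on low values (0.0871) and without the Ttr-rich libraries (0.0542). The medial change was 0.06 ± 0.07 (0.474).

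Ift22, a small GTPase-like IFT-B subunit, was at 20.4, 20.2, 19.7 and 18.7 TPM in mutant dorsal libraries, against 17.6 to 20.3 TPM with a median of 19.5 TPM in control dorsal libraries. Its medial mutant values were 22.9, 18.8, 19.5 and 20.1 TPM, against 24.2, 23.2, 22.5, 21.8 and 21.7 TPM in control medial libraries. Both pairs of groups overlapped, the medial pair in mutant library 1. Ift22 changed by 0.03 ± 0.06 in dorsal cortex (adjusted p = 0.704) and fell by 0.15 ± 0.06 in medial cortex (0.0441), a call that was lost on both other scales (0.586 and 0.737) and when any of 9 libraries was left out (up to 0.148). These were mutant medial libraries 2, 3 and 4, control medial libraries 2, 3 and 4, mutant dorsal library 1 and control dorsal libraries 2 and 4. It was also lost with sex as a covariate (0.14), with no filter on low values (0.0732) and without the Ttr-rich libraries (0.286).

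Ift88, a core subunit without which mouse cells build no cilium, was at 14.2, 15.6, 15.6 and 14.4 TPM in mutant dorsal libraries, against 14.6 to 18.3 TPM with a median of 16.2 TPM in control dorsal libraries. In mutant medial libraries it was at 15, 16, 16.4 and 14.6 TPM, against 17.8, 17.5, 15.8, 17.6 and 17.6 TPM in control medial libraries. The groups overlapped in both regions, and neither change passed (-0.11 ± 0.06, adjusted p = 0.14, and -0.15 ± 0.06, 0.0623). The medial change passed when control medial library 4, the lowest of its group, or control dorsal library 2 or 3 was left out (adjusted p as low as 0.0344).

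Ift46 was at 33.8 to 45 TPM in mutant dorsal and 41.7 to 52.3 TPM in control dorsal libraries, and at 29.4 to 42.3 TPM in mutant medial and 40.2 to 50.7 TPM in control medial libraries. It fell by 0.31 ± 0.11 (adjusted p = 0.0277) and by 0.33 ± 0.11 (0.0245). The fall was not called on either other scale in either region, and was lost without mutant library 3 or 4 of the region tested, without control dorsal library 4, or without control medial library 4 or 6 (adjusted p up to 0.112). Both calls were also lost with sex as a covariate (0.0955 dorsal and 0.11 medial), the dorsal one with no filter on low values (0.0506) and the medial one without the Ttr-rich libraries (0.179). Mutants 3 and 4 had the lowest Ift46 values in both regions. In controls the lowest were dorsal libraries 1 and 5 and medial library 5, which were also high in Hba-a2. The other 5 IFT-B genes, Ift27, Ift52, Ift57, Ift80 and Ift172, did not pass in either region as deposited, with log2 changes between -0.20 for Ift172 and 0.26 for Ift27, both in medial cortex. Ift80, which sits at the edge of the IFT-B complex, was at 13.7 ± 0.766 TPM in mutant dorsal and 12.1 ± 0.922 TPM in control dorsal cortex, a change that passed on the rescaled data only (adjusted p = 0.0604 as deposited, 0.00481 by median ratios and 0.00211 by quantiles).

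Of the 6 IFT-A genes, Wdr19 fell in both regions and the others did not pass. Wdr19, a core IFT-A subunit, was at 5.98, 6.58, 6.2 and 5.48 TPM in mutant dorsal libraries, against 6.98 to 7.78 TPM with a median of 7.44 TPM in control dorsal libraries. Medial mutant libraries held 6.47, 6.69, 6.95 and 6.92 TPM, against 8.41, 7.18, 7.26, 7.71 and 8.03 TPM in control medial libraries. The groups did not overlap in either region. Wdr19 fell by 0.26 ± 0.06 in dorsal cortex (adjusted p = 0.00271; 0.0258 by median ratios, 0.0526 by quantiles) and by 0.17 ± 0.06 in medial cortex (0.0411). The medial fall was not called on either other scale (0.371 and 0.992), under the embryo block (0.0648), with no filter on low values (0.0622), without the Ttr-rich libraries (0.125), without control medial library 2, 5 or 6, or without any 1 of the 4 mutant medial libraries (up to 0.103).

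Ift43 was at 102 ± 4.61 TPM in mutant medial and 91.9 ± 3.81 TPM in control medial cortex (SD, n = 4 and 5), all mutant libraries above all control libraries, with a change of 0.15 ± 0.07 that missed the threshold as deposited (adjusted p = 0.0791) and passed on both other scales (0.0144 and 0.0222). Wdr35 missed it in both regions as deposited (0.14 ± 0.06, 0.0727 dorsal, and 0.06 ± 0.06, 0.42 medial) and passed on both other scales in both. For Ift122, Ift140 and Ttc21b the 95% intervals lay within 0.32 of no change on the log2 scale in both regions. The dynein-2 heavy chain gene Dync2h1 was at 14.6 ± 2.23 TPM in mutant dorsal and 14.7 ± 1.97 TPM in control dorsal cortex, and at 20.2 ± 3.43 TPM in mutant medial and 20.1 ± 1.91 TPM in control medial cortex, with a log2 change of -0.01 ± 0.11 (95% interval -0.24 to 0.23) in dorsal cortex and an interval from -0.25 to 0.25 in medial cortex. Dync2li1, its light intermediate chain, changed by -0.05 ± 0.12 and -0.12 ± 0.13, and neither motor gene passed.

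Among the BBS genes, Bbs4 fell in both regions and Bbs10 in medial cortex. Bbs4, a BBSome subunit, was at 40.8, 42.9, 34.4 and 40 TPM in mutant dorsal libraries, against 43.9 to 48.6 TPM with a median of 47 TPM in control dorsal libraries. Its medial mutant values were 36.2, 38, 32.3 and 30.9 TPM, against 39.3, 41.4, 39.8, 40.3 and 47.1 TPM in control medial libraries. Mutant and control libraries were apart in both regions. Bbs4 fell by 0.24 ± 0.07 (adjusted p = 0.00921) and by 0.27 ± 0.07 (0.00475), calls that were not made after median-ratio (0.117 and 0.0801) or quantile scaling (0.0886 and 0.0682). The dorsal call was also lost without mutant dorsal library 3 (0.0515).

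The other 5 BBSome subunits, Bbs1, Bbs2, Bbs5, Bbs7 and Bbs9, had log2 changes between -0.19 and -0.01 in the TPM as deposited, and none passed. The median of the 6 subunits, -0.10 in each region, equalled or lay close to that of all tested genes. Bbs10, which helps to assemble the BBSome, was at 10.4 to 12.5 TPM in mutant medial and 12.5 to 14.4 TPM in control medial libraries and fell by 0.19 ± 0.06 (adjusted p = 0.0205), a call lost without mutant medial library 1 (0.0852) and on both other scales (0.258 and 0.703). Bbs12, another chaperonin-like gene, changed by 0.04 ± 0.08 in dorsal and -0.03 ± 0.09 in medial cortex.

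None of the 6 transition zone and basal body genes passed in either region as deposited. Their log2 changes ran from -0.12 for Ofd1 to 0.13 for Tctn2 in dorsal cortex, and from -0.18 for Tctn1 to 0.05 for Tctn2 in medial cortex. After quantile normalization Tctn2 was called higher in both regions (adjusted p = 0.0328 and 0.0285) and Mks1 in medial cortex (0.0498). Rpgrip1l, which anchors the transition zone, was at 6.61 ± 0.727 TPM in mutant dorsal and 6.42 ± 0.574 TPM in control dorsal cortex. Cep290, which links the microtubules to the membrane there, was at 16.7 ± 1.64 TPM in mutant dorsal and 15.8 ± 1.26 TPM in control dorsal cortex. Ofd1, a centriolar gene on the X chromosome, averaged 22 TPM in male and 21.5 TPM in female control dorsal libraries (n = 3 each). Tctn1 shares 19% of its exonic length with Hvcn1 on the other strand, so its level is uncertain in the way given for Inpp5e.

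Many of the changes were bounded closely, called ones included. In dorsal cortex the 95% interval of 28 of the 41 genes lay within 0.32 of no change on the log2 scale, as did that of 40.3% of all tested genes, and in medial cortex that of 23 genes (38% of all genes). A test of the difference between the regional effects (medial minus dorsal) found 0 of the 41 genes higher, where 0.0074% of all tested genes were, and 0 lower, where 0% were (limma). At an unadjusted p under 0.05 there was 1 of the 41 genes and 451 of all genes (3.34%), and with a block for the embryo the test also called 0 of the 41. The 1 gene was Ift22, with a difference of -0.18 and a 95% interval from -0.35 to -0.01. For Gpr161 the difference was -0.12 (interval -0.31 to 0.06), for Evc -0.10 (-0.51 to 0.31), for Evc2 0.10 (-0.13 to 0.34), for Arl13b -0.06 (-0.24 to 0.13) and for Ift88 -0.03 (-0.21 to 0.14). The calls named above in 1 region are therefore not shown to differ between regions.

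The second question of the design was how medial and dorsal cortex differ. These comparisons use the same libraries as those above, so their values are not independent of them. In controls, 10 of the 41 genes were higher in medial cortex (Ift22, Ift74, Ift80, Wdr35, Dync2h1, Bbs12, Arl6, Evc, Evc2 and Tctn2), where 17.6% of all tested genes were, and 0 were lower, where 14.9% of all genes were (limma; 16 of the 41 had an unadjusted p under 0.05, of which 4 were lower, against 41.7% of all genes). In mutants, 5 genes were higher in medial cortex (Ift74, Wdr35, Dync2h1, Arl6 and Evc2; 8.03% of all genes) and 2 lower (Ift20 and Gpr161; 10.8% of all genes). These fits take dorsal and medial libraries as independent. With the embryo as a block, 16 genes were higher and 4 lower in medial control cortex (all genes 26.5% and 22.4%), as given below. The median log2 change of the 41 genes was 0.07 in mutants and 0.08 in controls, beside 0.0026 and 0.01 over all tested genes. Libraries did not overlap for 4 genes higher and 2 lower in medial mutant cortex (7.11% and 8.05% of all genes) and for 6 higher and none lower in medial control cortex (11.1% and 9.39%).

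**Figure D4:**
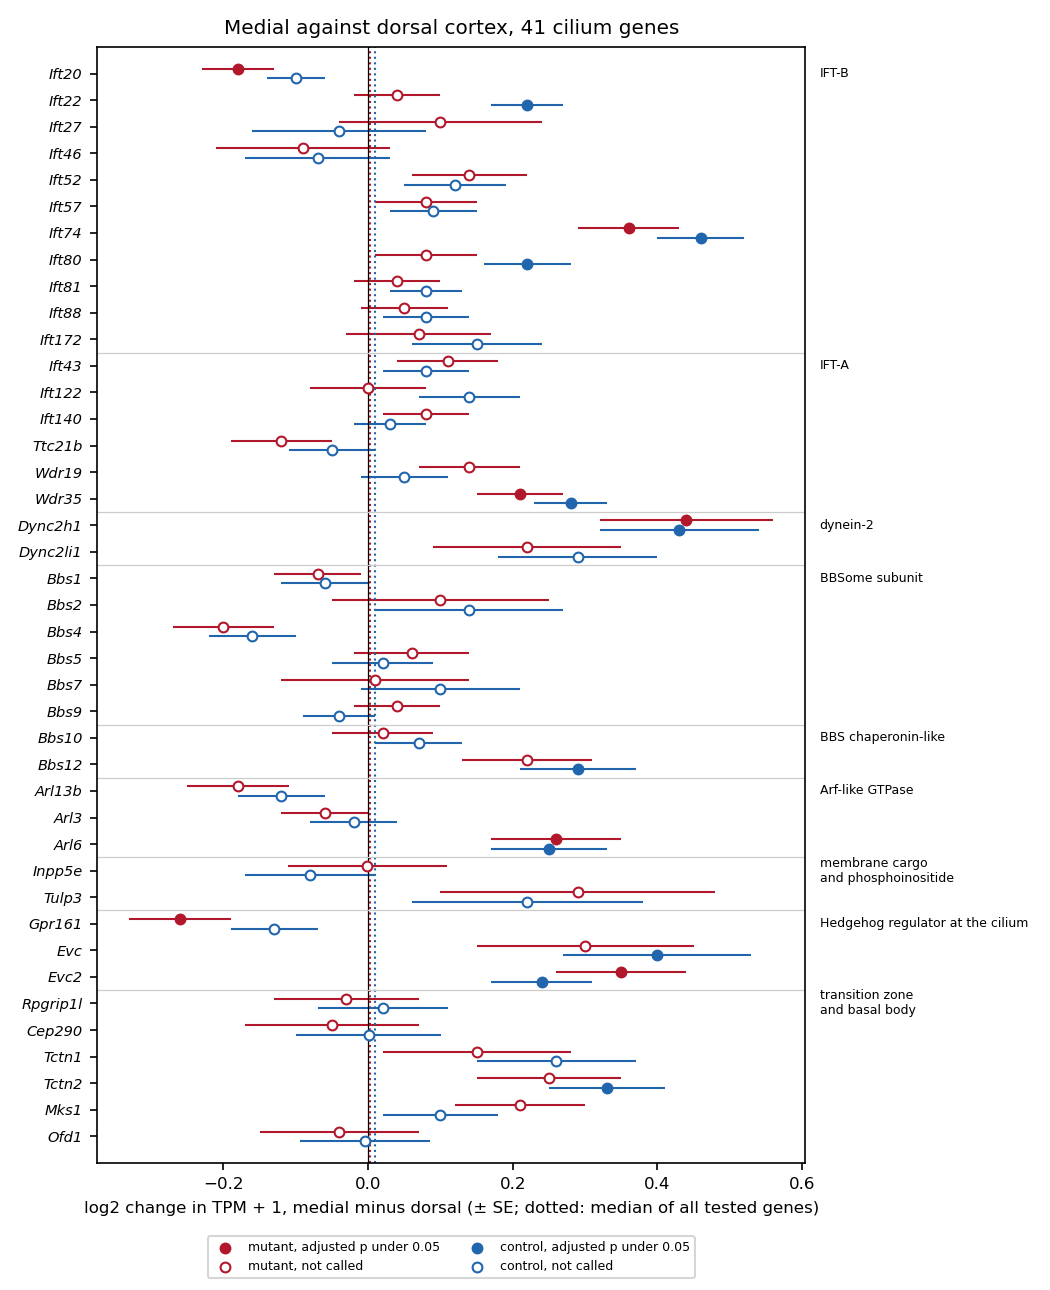
Log2 change of TPM + 1, medial minus dorsal, for each of the 41 genes in mutant (red) and control (blue) cortex, with the SE; filled points passed the test (adjusted p under 0.05), open points did not, and dotted lines mark the median of all tested genes. Dync2h1 and Ift74 lie farthest to the right (0.44 and 0.36 in mutants, 0.43 and 0.46 in controls), and Gpr161 lies farthest to the left in mutants (-0.26).

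Ift74 had the lowest adjusted p of the 41 genes in both regional comparisons. With the library values given above, it averaged 82.9 ± 4.85 TPM in medial and 64.6 ± 6.27 TPM in dorsal mutant cortex (SD, n = 4 each), and 79.4 ± 6.57 TPM in medial and 57.5 ± 2.25 TPM in dorsal control cortex (n = 5 and 6). Every medial library lay above every dorsal library of the same genotype. The change was 0.36 ± 0.07 in mutants (adjusted p = 0.00362) and 0.46 ± 0.06 in controls (5.18e-05), called under all 28 alternatives in each (at most 0.0264 and 0.000796).

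Wdr35, the IFT-A subunit, was at 24.3, 21.3, 25.8 and 22.2 TPM in mutant medial libraries, against 20.3, 19.8, 21.3 and 18.9 TPM in mutant dorsal libraries. It was at 22.7, 23.4, 21, 20.8 and 23.6 TPM in control medial libraries, against 16.7 to 19.2 TPM with a median of 18.4 TPM in control dorsal libraries. The regions did not overlap in either genotype, although in mutants the nearest libraries both round to 21.3 TPM. The change was 0.21 ± 0.06 in mutants (adjusted p = 0.0283), lost without mutant dorsal library 2 or 4, mutant medial library 1 or 3 (up to 0.117) or the Ttr-rich libraries (0.146), and 0.28 ± 0.05 in controls (0.000912), called under all 28 alternatives (at most 0.00434).

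Dync2h1 was at 18.6, 17, 25 and 20.2 TPM in mutant medial libraries, against 15.5, 12.4, 17.4 and 13.4 TPM in mutant dorsal libraries. It was at 19.9, 18.6, 18.3, 23.1 and 20.4 TPM in control medial libraries, against 12 to 17.2 TPM with a median of 14.6 TPM in control dorsal libraries. Controls did not overlap, and in mutants medial library 2 lay below dorsal library 3. The change was 0.44 ± 0.12 in mutants (adjusted p = 0.0199), lost without mutant dorsal library 2 or 4 or mutant medial library 3 (up to 0.0875) or without the Ttr-rich libraries (0.114), and 0.43 ± 0.11 in controls (0.0049), called under all 28 alternatives (at most 0.015). Dync2li1, the other motor gene, changed by 0.22 ± 0.13 and 0.29 ± 0.11 without passing (0.265 and 0.0593).

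Ift22 averaged 20.3 ± 1.79 TPM in medial and 19.8 ± 0.757 TPM in dorsal mutant cortex, and 22.7 ± 1.03 TPM in medial and 19.3 ± 1.05 TPM in dorsal control cortex. Its change of 0.04 ± 0.06 in mutants did not pass (adjusted p = 0.742), and its rise of 0.22 ± 0.05 in controls passed under all 28 alternatives (0.00381, at most 0.0425). The difference between these regional changes is the -0.18 tested above, which did not pass adjustment.

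**Figure D5:**
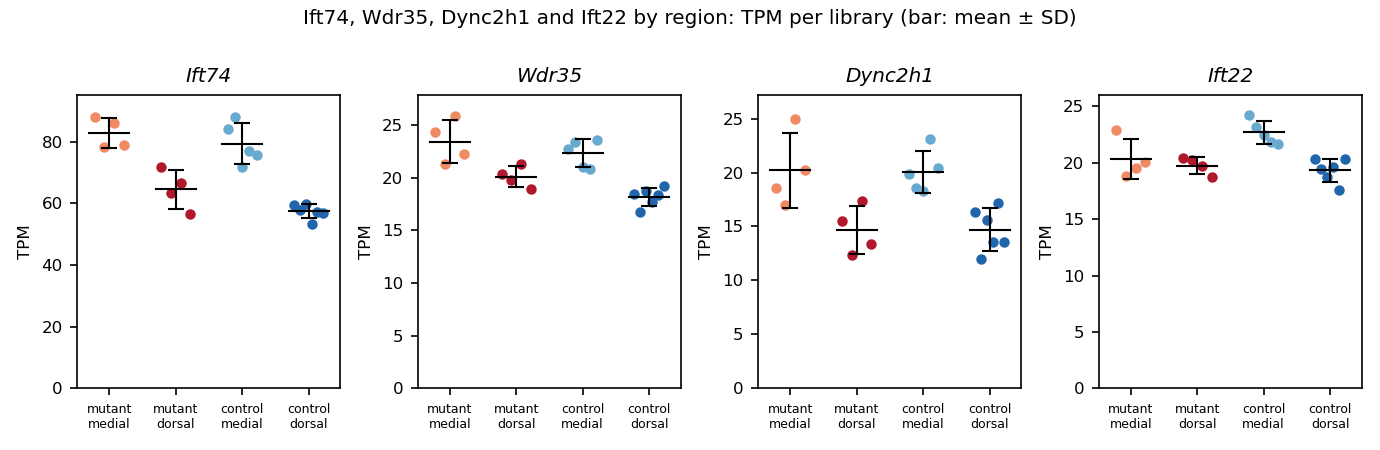
TPM of Ift74, Wdr35, Dync2h1 and Ift22 in every library, with medial beside dorsal cortex for mutants and then for controls, and with the mean and SD; the axes start at 0. For Ift74 all medial libraries (71.9 TPM and above) lie above all dorsal libraries (71.7 TPM and below), and for Ift22 the regions are apart in controls only.

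Of the Hedgehog regulators, Evc2 was higher in medial cortex by 0.35 ± 0.09 in mutants (adjusted p = 0.00988) and by 0.24 ± 0.07 in controls (0.0164), with no overlap between regions in either genotype. The mutant call was lost without the Ttr-rich libraries (0.0673). Evc was higher by 0.30 ± 0.15 in mutants, which did not pass (0.163) except without mutant dorsal library 3 or with the embryo as a block (0.0108), and by 0.40 ± 0.13 in controls (0.0217), a call lost without control dorsal library 4 or control medial library 2, 3 or 5 (up to 0.0587). Gpr161 was lower in medial cortex by -0.26 ± 0.07 in mutants (0.013; 0.0576 without the Ttr-rich libraries) and by -0.13 ± 0.06 in controls, which did not pass (0.0812). That control change passed when control dorsal library 2 or control medial library 6 was left out, by median ratios (0.0449) and with the embryo as a block (adjusted p as low as 0.0116 over the alternatives). Neither Arl13b (-0.18 ± 0.07 in mutants, 0.0634; -0.12 ± 0.06 in controls, 0.109) nor Ift88 (0.05 ± 0.06, 0.662; 0.08 ± 0.06, 0.272) passed, though Arl13b did in mutants without mutant dorsal library 1 or 3, in controls by quantiles (0.0479), and in both with the embryo as a block.

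Arl6 was higher by 0.26 ± 0.09 in mutants (adjusted p = 0.0486) and by 0.25 ± 0.08 in controls (0.0152; 0.0518 without control medial library 3 and 0.103 without the Ttr-rich libraries). The mutant call was lost when any of 11 libraries was left out (up to 0.151), namely mutant medial libraries 1, 2 and 3, mutant dorsal libraries 2 and 4, control medial libraries 2, 4 and 6 and control dorsal libraries 1, 3 and 4. It was also lost by median ratios (0.0623), by quantiles (0.0655), with no filter on low values (0.0866) and without the Ttr-rich libraries (0.135). Ift20 was lower in medial mutant cortex by -0.18 ± 0.05 (0.0147), a call lost without mutant dorsal library 2 or mutant medial library 3 (up to 0.0698) or without the Ttr-rich libraries (0.0742), and by -0.10 ± 0.04 in controls, which did not pass (0.0624). The other calls in controls were Ift80 (0.22 ± 0.06, 0.0134; 0.0579 without the Ttr-rich libraries), Bbs12 (0.29 ± 0.08, 0.00807; 0.0553 without them) and Tctn2 (0.33 ± 0.08, 0.00577). Tctn2, a membrane-associated protein of the transition zone, held 3.73 to 4.41 TPM in medial and 2.72 to 3.52 TPM in dorsal control libraries, without overlap.

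Dorsal and medial libraries with the same number and genotype moved together, so the embryo, taken from that number, was also fitted as a block. In that fit 12 genes were higher and 5 lower in medial mutant cortex (all genes 18.4% and 20.7%), and 16 were higher and 4 lower in medial control cortex (all genes 26.5% and 22.4%). The 5 lower in mutants were Ift20, Ttc21b, Bbs4, Arl13b and Gpr161, and the 4 lower in controls were Ift20, Bbs4, Arl13b and Gpr161. With the block the change of Gpr161 had an adjusted p of 0.000477 in mutants and 0.0164 in controls, that of Arl13b 0.00849 and 0.0295, and that of Bbs4 0.00472 and 0.00313. Within the same fit the genotype counts were 3 higher and 6 lower in dorsal cortex (all genes 9.93% and 26.9%) and 3 higher and 7 lower in medial cortex (all genes 9.36% and 30.5%).

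Other ciliary genes, from lists chosen with earlier results of these data known, moved as follows. Their counts stand beside 9.93% of all tested genes higher and 27.6% lower in dorsal mutant cortex, and 9.44% higher and 30.2% lower in medial mutant cortex. Of 14 tested genes of other IFT subunits and ciliary motors, 0 were higher and 3 (21.4%) lower in dorsal mutant cortex, and 0 were higher and 5 (35.7%) lower in medial mutant cortex. Kif3a, Kif3b and Kifap3, subunits of the kinesin-2 motor that carries IFT-B outward, were lower in both regions. Kifap3 changed by -0.33 ± 0.08 in dorsal cortex (adjusted p = 0.0049) and -0.36 ± 0.09 in medial cortex (0.00326), and Kif3b by -0.14 ± 0.05 (0.0402) and -0.20 ± 0.05 (0.00489). Kif3a was at 78.4 ± 7.77 TPM in mutant dorsal and 96.5 ± 7.03 TPM in control dorsal cortex, a fall of 0.30 ± 0.08 (0.00683). Kif3b lost its call on both other scales in both regions (at least 0.0718), while Kifap3 and Kif3a were called on all 3 scales in both. Kinesin-2 also carries cargo in axons. Of 8 other BBS genes, 0 were higher and 2 (25%) lower in dorsal mutant cortex and 0 were higher and 4 (50%) lower in medial mutant cortex, and none of these calls was made on all 3 scales. Trim32, a ubiquitin ligase, fell by 0.22 ± 0.06 and 0.23 ± 0.06 (adjusted p = 0.00663 and 0.00584).

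Of 25 other transition zone and basal body genes, 5 (20%) were higher and 2 (8%) lower in dorsal mutant cortex, and 3 (12%) were higher and 6 (24%) lower in medial mutant cortex. Tmem107, a transition zone membrane protein, rose by 0.53 ± 0.10 in dorsal cortex (log2, SE; adjusted p = 0.000381), and Intu, which acts in planar cell polarity and ciliogenesis, by 0.41 ± 0.09 in medial cortex (0.00168). Ahi1, which works in the transition zone and in neurons, fell by 0.35 ± 0.07 in medial cortex (0.000574). All 3 changes were called on all 3 scales.

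Of 9 genes of ciliary disassembly and centriole capping, 4 (44.4%) were higher and 1 (11.1%) lower in mutants in each region. Aurka, the mitotic kinase that also triggers loss of the cilium, was at 93.7 ± 11.7 TPM in mutant dorsal and 54.6 ± 4.7 TPM in control dorsal cortex, and at 114 ± 3.84 TPM in mutant medial and 75 ± 6.74 TPM in control medial cortex. It rose by 0.76 ± 0.08 and 0.60 ± 0.08 (adjusted p = 8.15e-07 and 2.45e-05), and the mitotic kinases Nek2 and Plk1 by 0.78 ± 0.06 and 0.78 ± 0.08 in dorsal cortex (3.65e-08 and 4.31e-07). Of the 7 RFX and Foxj1 genes, 0 were higher and 2 (28.6%) lower in mutants in each region: Foxj1, the regulator of motile cilia, changed by -0.59 ± 0.17 in dorsal and -0.82 ± 0.18 in medial cortex (0.0122 and 0.00167), and Rfx5, which is best known for its role in antigen presentation genes, by -0.53 ± 0.17 and -0.57 ± 0.18 (0.0213 and 0.0163; not called by quantile normalization). Between regions Rfx4, an RFX factor of the brain, was higher in medial cortex by 0.82 ± 0.15 in mutants (0.00272) and 0.75 ± 0.12 in controls (0.000277).

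Markers of cell types and of the cell cycle moved with the same contrasts. All 6 markers of cortical identity averaged above 1 TPM in every group, and their summed level was 740 to 885 TPM over the mutant and 893 to 1056 TPM over the control libraries. The 12 S phase genes were all higher in mutants in both regions, with sums of 1983 to 2622 TPM in mutant dorsal and 1126 to 1347 TPM in control dorsal libraries, and of 2406 to 2752 TPM in mutant medial and 1408 to 1613 TPM in control medial libraries. Of the 10 neuron markers 8 were lower in dorsal and 9 in medial mutant cortex, and their sum was 3423 to 5144 TPM in mutant dorsal and 5305 to 6131 TPM in control dorsal libraries, and 2477 to 3168 TPM in mutant medial and 3688 to 4737 TPM in control medial libraries. Of the 10 radial glia markers 6 were higher and 2 lower in dorsal, and 3 higher and 1 lower in medial mutant cortex. Their sums overlapped between genotypes, at 2607 to 2825 TPM in mutant dorsal and 2530 to 2886 TPM in control dorsal libraries. In medial cortex the sums were 3084 to 3422 TPM in mutant and 3171 to 3959 TPM in control libraries, with the lower mean in mutants (3286 against 3608 TPM). Of 5 tested microglia markers 4 were lower in dorsal mutant cortex and none passed in medial mutant cortex, with sums of 21.4 to 27.1 TPM in mutant dorsal and 33.2 to 44.7 TPM in control dorsal libraries. Of the 6 endothelial markers 1 was lower in dorsal mutant cortex, with sums of 69.9 to 85.4 TPM in mutant dorsal and 87.1 to 101 TPM in control dorsal libraries, and none passed in medial mutant cortex. No erythroid marker passed between genotypes, though Hba-a2 and, in the opposite direction, Hba-a1 were uneven within groups, as given above with Evc. Between regions, 8 of the 10 radial glia markers were higher and 7 of the 10 neuron markers lower in medial control cortex. No list had a marker at 0 in every library of a group. The part of these shifts in the results on ciliary genes was not tested.

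Markers of motile cilia were low: of 15 multiciliated cell markers, 10 averaged under 1 TPM in 3 of the groups and 11 in mutant medial cortex, and their sum was at most 38.8 TPM in any library. Markers of the choroid plexus, which borders the medial cortex and bears motile cilia, were uneven between libraries. The sum of the 8 markers was 2.66 to 170 TPM in mutant medial and 2.38 to 989 TPM in control medial libraries, against 1.29 to 24.6 TPM in mutant dorsal and 1.59 to 17.6 TPM in control dorsal libraries, and Ttr alone reached 161 TPM in mutant medial library 3 and 47.2 and 934 TPM in control medial libraries 2 and 4. Without these 3 libraries, a setting chosen after the data were seen, Gpr161 was lower in medial mutant cortex by -0.48 (adjusted p = 0.000943), Ift20 by -0.24 (0.00808) and Bbs4 by -0.29 (0.0239), and Ift74 was higher in medial control cortex by 0.47 (0.000796).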

How the data were processed

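RNA was extracted from dissected E14.5 cortex and sequenced, per the labels' protocols. The deposited table holds TPM, a unit scaled by the authors for gene length and library total; the build is mm10, per the submitters' processing notes. Which aligner and quantifier were used, and whether reads were counted by strand, is not given in the sources used here. Every column sums to 1000000, so depth is unknown and no counting interval can be given. Groups come from the labels: 4 mutant dorsal, 6 control dorsal, 4 mutant medial and 5 control medial libraries.

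From these values, log2(TPM + 1) was fitted with limma 3.58.1 (R 4.3.3; empirical Bayes with trend and robust settings) as 4 group means over all 19 libraries, which share 1 estimate of the spread. The filter kept 13520 genes (1 TPM or more in 4 or more libraries), p-values were adjusted by Benjamini-Hochberg over all of them, and an adjusted p under 0.05 was called. Fold changes are on the log2(TPM + 1) scale, which understates the change of low genes. Tables were handled with Python 3.11.15 and pandas 2.3.3, and figures drawn with matplotlib 3.10.9.

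Members and gene lists were chosen with earlier results of these data known. Per-library values were given for up to 4 members with the lowest adjusted p in each comparison and for Gpr161, Evc, Evc2, Arl13b and Ift88, and up to 3 genes of each other list were named by adjusted p.

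Dorsal and medial libraries of the same number and genotype were taken as pairs. Their deviations from the group means correlated at r = 0.549 to 0.795 in all 9 such pairs. In 7 pairs of the same number and region across genotypes, r was -0.436 to 0.138. Libraries of different number within a genotype were not compared, so these correlations do not show that a number marks 1 embryo. The pairing comes from the shared numbers in the library titles, and the embryo block was fitted with statmod 1.5.0 at an estimated correlation of 0.515. Alternatives were a pseudocount of 0.1, no filter or a filter at 5 TPM, median-ratio and quantile scaling, the block, sex as a covariate and leaving out each library. Leaving out the 3 libraries with at least 40 TPM of Ttr was added after the data were seen. Gene positions are from GENCODE M21 (GRCm38), and promoter sequences from RefSeq (GRCm38.p6), which lists 37 of the 41 members; Ift80, Ift81, Ift122 and Dync2li1 are not among them. One gene of the other lists is counted but not reported here.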

Additional observations from a re-analysis of the deposited data

Results flagged for a closer look

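In 8 of the 164 combinations of gene and group, 1 library stood apart from the others of its group by Dixon's test; chance alone gives about 1 in 20. In mutant libraries, Gpr161 was highest in mutant medial library 4 at 45.6 TPM, against 41.4 to 42.1 TPM in the others, and still below all control medial libraries. Cep290 was highest in mutant medial library 2 at 18 TPM (others 15.2 to 15.7 TPM), and Ift80 was lowest in mutant dorsal library 4 at 12.5 TPM (others 14 to 14.1 TPM).

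In control libraries, Ift20 was lowest in control dorsal library 1 at 62.5 TPM (others 67.3 to 68.3 TPM). Control medial library 5 had the lowest Arl3, 134 TPM (others 154 to 162 TPM), and the highest Inpp5e, 18.9 TPM (others 13.9 to 15.1 TPM). Ift88 was lowest in control medial library 4 at 15.8 TPM (others 17.5 to 17.8 TPM), and Bbs4 was highest in control medial library 6 at 47.1 TPM (others 39.3 to 41.4 TPM).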

How the results depend on the processing

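Scaling moved the counts between genotypes most. By median ratios, 7 members were higher and 2 lower in dorsal, and 6 higher and 2 lower in medial mutant cortex. By quantiles the counts were 7 and 1, and 8 and 3. The shares of all genes on these scales are given above. In medial mutant cortex 1 member was higher with sex as a covariate (all genes 7.93%) and 0 without the Ttr-rich libraries (6.09%). In medial against dorsal control cortex 1 member was lower with a 5 TPM filter (all genes 16.3%), by median ratios (15.4%) and by quantiles (17%). Without the Ttr-rich libraries, 1 member was higher and 0 were lower in medial mutant against dorsal mutant cortex (all genes 2.67% and 4.26%).

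With the replicate block by embryo, 12 members were higher and 5 lower in medial mutant cortex, and 16 higher and 4 lower in medial control cortex; a replicate block by title number across genotypes gave 5 higher in dorsal mutant cortex (all genes 10.7%, against 9.93% with no block) and 2 lower in medial control cortex (all genes 16.6%, against 14.9%). That block also ended the medial genotype calls of Wdr19 (adjusted p = 0.117), Arl13b (0.126) and Bbs10 (0.0696). The cause of these shifts was not tested.

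Leaving out 1 library gave 1 to 5 members higher and 4 to 7 lower in dorsal mutant cortex, and 1 to 4 higher and 5 to 9 lower in medial mutant cortex. Between regions it gave 2 to 8 higher and 1 to 4 lower in mutants, and 8 to 11 higher and 0 to 3 lower in controls. The shares of all genes called in these fits are not given here, so the shifts are not shown to be particular to the members. The higher count in dorsal mutant cortex was 1 without mutant dorsal library 1 or 3 and 5 without mutant dorsal library 4; in medial mutant cortex it was 1 without mutant medial library 3 or 4 or control medial library 4, 5 or 6, and the lower count was 5 without mutant medial library 3 or 4. In medial against dorsal mutant cortex, 8 were higher without mutant dorsal library 3 and 2 without mutant dorsal library 2 or 4 or mutant medial library 3, and 3 without mutant medial library 1; 4 were lower without mutant dorsal library 3 and 1 without mutant dorsal library 2 or mutant medial library 3. The difference between regions stayed at 0 members in each direction. Over named members, 1316 values kept direction and side of the threshold, 148 lost the call, 17 gained it and 2 reversed: the regional difference of Ift88 by quantiles (0.0012) and that of Evc without mutant dorsal library 3 (0.02), neither called. Over single libraries left out, the difference of Evc ran from -0.21 to 0.02. Depth is unknown, so no limit from counting can be set.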
